A study of Mus musculus with 5 samples.

Results

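The genes of the mitochondrial ribosomal proteins were followed through 5 cultures of mouse CD4 T cells. Members were all genes whose symbol begins with Mrpl or Mrps and goes on with a digit. The first name stands for the large subunit and the second for the small subunit. Mrps18a and Mrps30 nevertheless belong to the large subunit, and Mrps36 belongs to neither. The symbols came from the RefSeq accession of each array probe, and a gene with several probes was represented by the brightest. Of 84 such genes in the RefSeq gene table, 6 were pseudogenes without a probe, which left 78 members among 21366 genes with a value. Well above background on all 5 arrays, as the scanner software defines it, were 77 members. Mrpl21 was well above background on none, so counts of members by level or difference are out of 77.

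All 5 cultures began with naive CD4 T cells from spleens of C57BL/6 mice and were profiled as total RNA on 1-colour whole-genome arrays, with 1 array for each culture. Th1reg cells had been Th1 cells, were then rested, and then spent 4 days in iTreg medium, which held antibodies to CD3 and CD28, antibodies to IFN-gamma and IL-4, IL-2 and TGF-beta. Th1+TGFb cells were Th1 cells moved into that iTreg medium for 4 days without the rest. Rested cells were Th1 cells kept for 4 days with antibodies to IFN-gamma and IL-4 and with IL-2, so without the CD3 and CD28 antibodies and without TGF-beta. iTreg cells were naive cells put straight into iTreg medium for 4 days. Th1 cells were naive cells cultured for 4 days with antibodies to CD3, CD28 and IL-4, IL-2 and IL-12, and cells made this way were the starting point of the Th1+TGFb, rested and Th1reg cultures. IL-2 and an antibody to IL-4 were common to all 5. The labels do not say whether the profiled Th1 and rested cells were the very cultures from which the others were made, so each comparison is between cultures. They say nothing of separate cultures or animals for a group, and with 1 array a culture no difference could be tested. The time since the naive state, 12 days for Th1reg, 8 days for Th1+TGFb and for rested cells and 4 days for iTreg and Th1, cannot be told apart from the treatment where it differs, which is in every comparison given here except iTreg against Th1 cells.

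Mitochondria carry their own small genome, and its messenger RNAs are translated inside the organelle by a dedicated ribosome. That ribosome makes a handful of membrane proteins of the respiratory chain and the ATP synthase. Its RNA is encoded in the mitochondrial genome, while all of its proteins are encoded in the nucleus, made by cytosolic ribosomes and imported. When a T cell is activated it grows, divides and enlarges its mitochondrial mass, and inhibition of mitochondrial translation is known to limit T cell expansion and cytokine production. A cell that loses its activating signals becomes small again.

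Levels are given as log2 of the scanner's processed signal after subtraction of the array's 75th percentile, so 0 is the 75th percentile of an array and a difference of 1 is 2-fold. Each gene is set only against itself across arrays, because probes differ in brightness for reasons other than transcript number. The 75th percentile itself lay between 144 signal units in rested cells and 306 in Th1reg cells. Between 45.7% and 48.6% of spots were well above background, and no spot was saturated. Probes spotted several times on an array had a median SD of 0.055 to 0.073 log2 units between spots, and the SD that this gives for a difference between 2 arrays was at most 0.09. This spread is technical and does not speak to differences between repeat cultures. Foxp3, the regulatory T cell factor, was at 4.12 in Th1reg and 5.26 in iTreg cells and was not well above background in the other 3 cultures. Tbx21, the Th1 factor, was at 4.86 in Th1reg, 4.71 in Th1+TGFb, 4.23 in rested, 0.58 in iTreg and 6.42 in Th1 cells.

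The rested array gave the lowest level of 64 of the 77 members, which is 83.1%. The same array was lowest for 38.3% of the 10716 genes well above background on all arrays. The iTreg array was lowest for 11 members (14.3%), beside 23.9% of those genes. The Th1+TGFb array was lowest for 2, Mrpl38 and Mrps5, beside 16.5%. At the other end, the Th1reg array was highest for 47 members (61%), beside 31.3% of those genes. The Th1 array was highest for 25 (32.5%), beside 24.7%. The rested array was highest for Mrpl9, Mrpl24 and Mrps5, and the Th1+TGFb array for Mrpl44 and Mrps6. These 2 arrays were highest for 21.2% and 9.11% of those genes. The median range of a member over the 5 arrays was 1.40 log2 units, beside 1.29 over all genes well above background on all arrays.

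**Figure D1:**
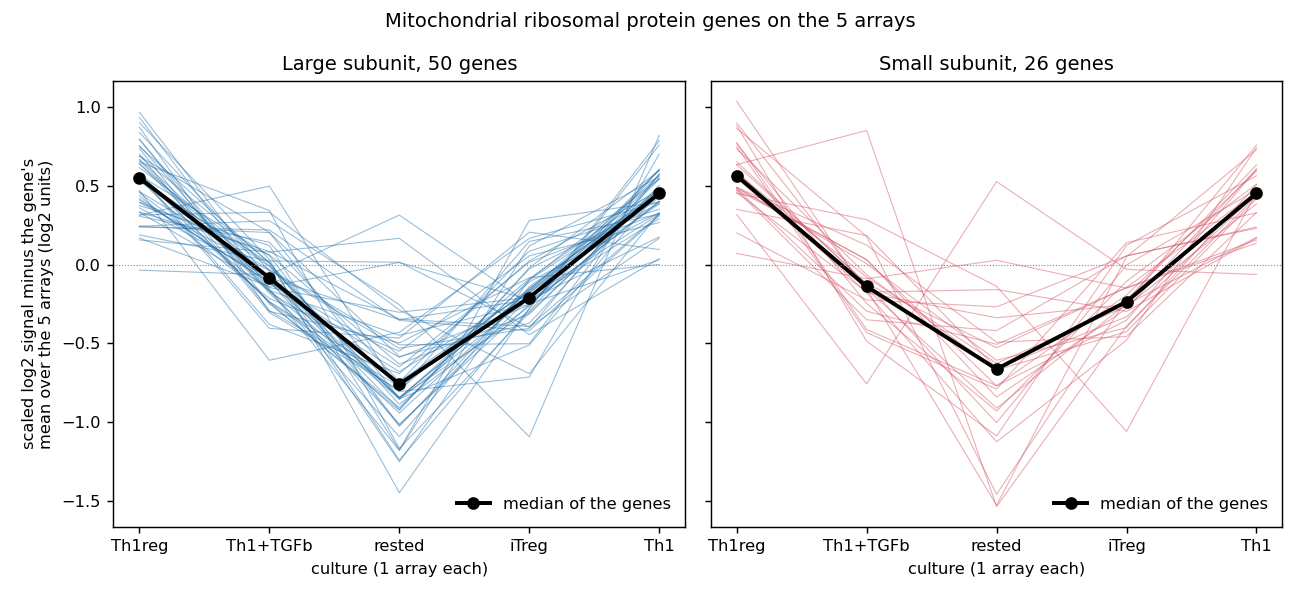
Level of each member on each array, as scaled log2 signal minus that gene's mean over the 5 arrays, for the large subunit (50 genes) and the small subunit (26 genes); thin lines join the values of 1 gene and do not mark an order, and black points are medians. The medians of both subunits are highest in Th1reg and Th1 cells and lowest in rested cells, with Th1+TGFb and iTreg cells between them.

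In rested cells, set against Th1 cells, 52 of the 77 members were at least 2-fold lower and 0 were at least 2-fold higher. Over the 13231 genes measured in this comparison, 26.7% were at least 2-fold lower and 17.5% at least 2-fold higher. The median member differed by -1.13, a 2.19-fold lower signal, while the median of all genes was -0.29, which put the members at -0.84 relative to it. Below 0 were 74 members, and the range ran down to -2.26.

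Mrps22 showed the largest difference. It is a small-subunit protein that bacterial ribosomes lack, and in humans inherited loss of MRPS22 causes a deficit of oxidative phosphorylation. Its level was 2.98 in Th1reg, 1.92 in Th1+TGFb, 0.55 in rested, 2.13 in iTreg and 2.81 in Th1 cells. The rested array stood apart below the other 4, and the signal was 4.79-fold lower there than on the Th1 array, a difference of -2.26. Mrpl17, the counterpart of bacterial L17 near the exit tunnel through which new proteins leave the ribosome, was also lowest on the rested array, with 3.75 in Th1reg, 2.88 in Th1+TGFb, 1.40 in rested, 2.58 in iTreg and 3.64 in Th1 cells (-2.24 in rested against Th1 cells). Mrps25, another small-subunit protein without a bacterial counterpart, was at 5.62 in Th1reg, 4.93 in Th1+TGFb, 3.29 in rested, 4.53 in iTreg and 5.39 in Th1 cells, a difference of -2.09 in rested against Th1 cells. A second, dimmer probe of Mrps25 went the other way (0.75).

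The next 3 in size were Mrpl49, Mrps6 and Mrps10. Mrpl49, a large-subunit protein found only in mitochondrial ribosomes, was at 3.05 in Th1reg, 2.31 in Th1+TGFb, 1.06 in rested, 2.02 in iTreg and 3.06 in Th1 cells. Rested against Th1 cells differed by -2.00 by this probe and by -0.64 by a second probe of the gene. Mrps6, the counterpart of bacterial S6, read 5.69 in Th1reg, 5.91 in Th1+TGFb, 3.52 in rested, 4.66 in iTreg and 5.49 in Th1 cells. It was the member with the highest Th1+TGFb level relative to its Th1 level, and its rested against Th1 difference was -1.97. Mrps10, the counterpart of bacterial S10 in the head of the small subunit, read 4.85 in Th1reg, 3.64 in Th1+TGFb, 2.69 in rested, 3.34 in iTreg and 4.56 in Th1 cells, with a rested against Th1 difference of -1.87.

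By the brightest probe, only 3 members were higher in rested than in Th1 cells by any margin, and none of the 3 reached 2-fold. Their direction held under the other scalings tried except spike-in scaling, which put Mrps5 at -0.57, Mrpl9 at -0.88 and Mrpl24 at -1.03. With the 75th percentile of probes detected on all arrays 10 members were above 0. Mrps5, the counterpart of bacterial S5 beside the messenger RNA channel, was at 1.65 in Th1reg, 0.57 in Th1+TGFb, 1.86 in rested, 1.30 in iTreg and 1.27 in Th1 cells. Its rested level was the highest of the 5, 0.59 above Th1. Mrpl9, the counterpart of bacterial L9, was at 3.08 in Th1reg, 3.05 in Th1+TGFb, 3.43 in rested, 2.87 in iTreg and 3.15 in Th1 cells, a difference of 0.28 in rested against Th1 cells. Mrpl24, the counterpart of bacterial L24 at the exit tunnel, differed by 0.13.

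Markers of other cell types also differed with rest. All 8 of the 9 T cell markers that had a probe were well above background on every array, with a summed linear signal, in multiples of the array's 75th percentile, of 1179 to 2523. Of 7 B cell markers, 3 or 4 were well above background, with a sum of 0.94 to 5.55 that was highest in rested cells, and Pax5 was well above background on no array. Of 9 myeloid markers, 4 to 6 were, with a sum of 396 to 1733, again highest in rested cells; Itgam, Csf3r and Siglech made up nearly all of it, and Lyz2, S100a8 and S100a9 were well above background on no array. CD8 T and NK cell markers summed to 1.55 to 7.61, highest in Th1+TGFb cells, and erythroid markers to at most 0.24. The part of these cells in the results was not tested. In bulk RNA of this kind, fewer cells of a type and less RNA per cell cannot be told apart.

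Th1reg cells, made by putting rested cells into iTreg medium, had higher signals than rested cells for most members. By at least 2-fold, 51 of 77 members were higher and 0 were lower in Th1reg cells, set against rested cells. Over 13334 genes measured, 27.7% were at least 2-fold higher and 20% at least 2-fold lower. The median member was 1.32 higher, a 2.49-fold difference, against a median of 0.29 over all genes, and 74 members lay above 0. This comparison uses the same rested array as the one before it, so an error in that array would enter both with opposite sign.

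The 6 largest differences between Th1reg and rested cells were 2.43 for Mrps22, 2.35 for Mrpl17, 2.32 for Mrps25, 2.17 for Mrps6, 2.16 for Mrps10 and 2.09 for Mrpl12. In linear terms the Mrps22 signal was 5.38-fold higher. Mrpl12 encodes a protein of the flexible stalk that recruits translation factors to the large subunit, and the human protein is also known to bind the mitochondrial RNA polymerase. It was at 6.12 in Th1reg, 5.24 in Th1+TGFb, 4.03 in rested, 5.18 in iTreg and 5.83 in Th1 cells, lowest by more than 1 unit in rested cells. By the brightest probe, Mrpl9 (-0.35), Mrps5 (-0.21) and Mrpl24 (-0.01) were the only members not higher in Th1reg than in rested cells. Spike-in scaling gave 1.12 for Mrpl9, 1.26 for Mrps5 and 1.46 for Mrpl24. The Mrpl24 value was also above 0 after normexp background correction and in the authors' value table. A second probe was lower in Th1reg than in rested cells for Mrps25 (-0.48) and Mrpl41 (-1.00).

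**Figure D2:**
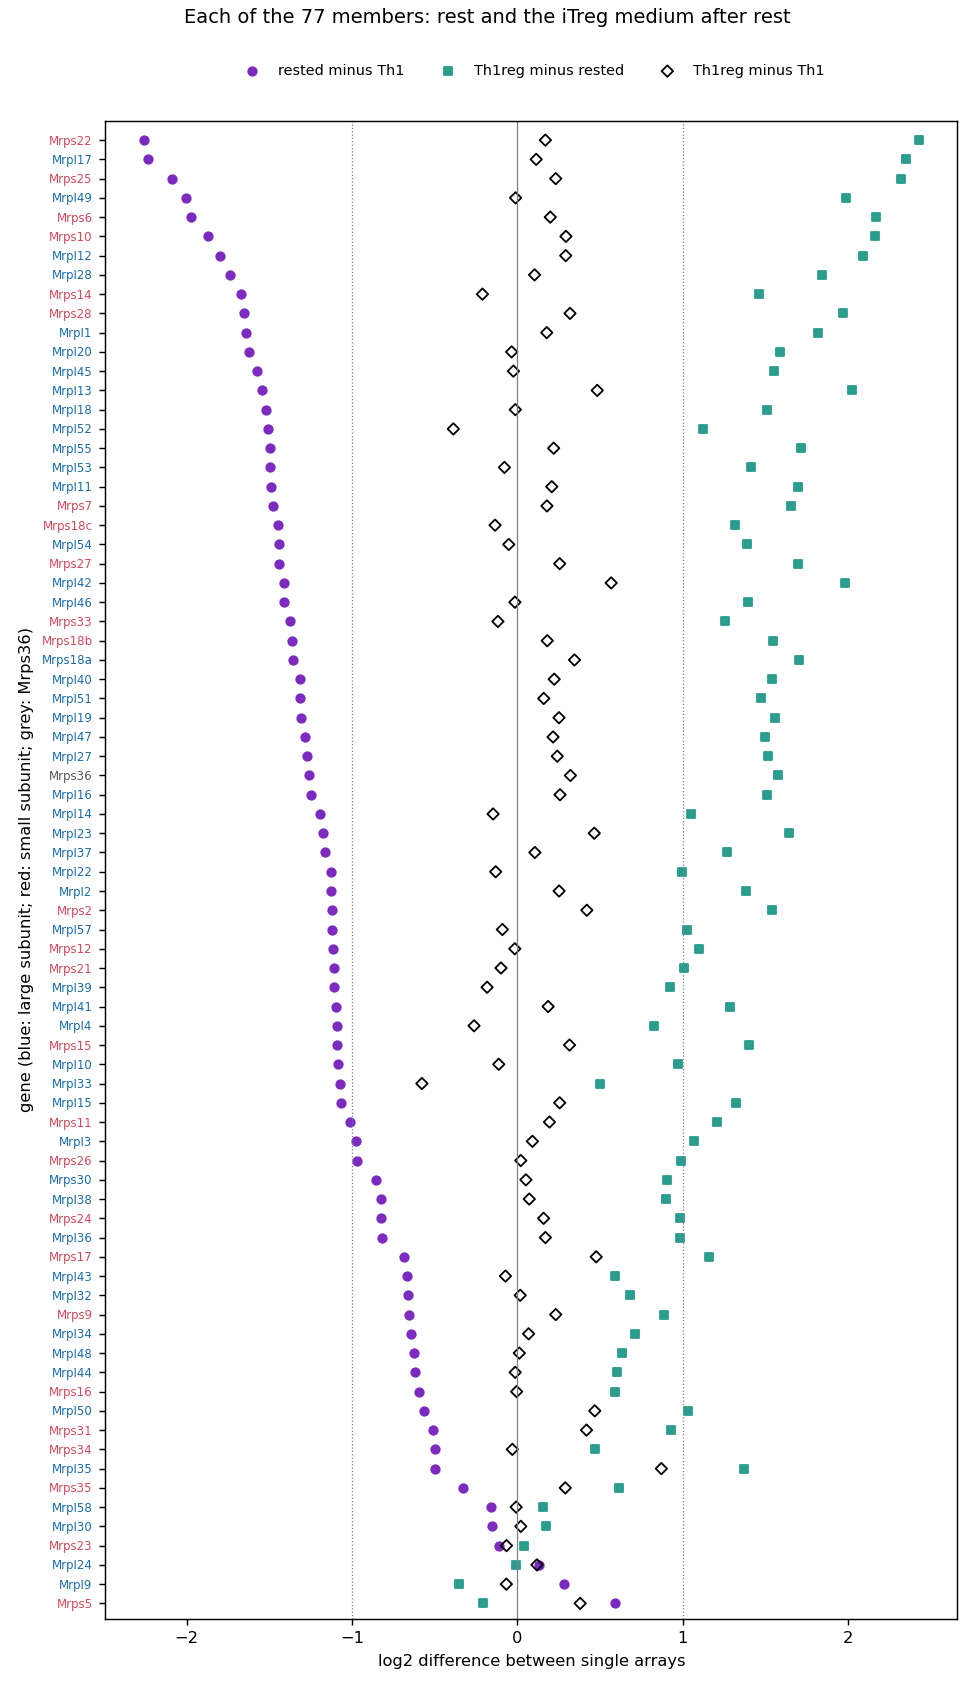
Log2 difference between single arrays for each of the 77 members, ordered by the difference between rested and Th1 cells; circles are rested minus Th1, squares Th1reg minus rested and open diamonds Th1reg minus Th1, and dotted lines mark 2-fold. Circles reach -2.26 and squares 2.43, both at Mrps22, while diamonds lie between -0.58 (Mrpl33) and 0.87 (Mrpl35).

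Between the end of the sequence and its start, Th1reg against Th1 cells, 0 members were 2-fold apart in either direction. Over 12870 genes, 6.29% were higher and 8.57% lower in Th1reg cells by 2-fold or more. The median member differed by 0.12, beside 0.01 over all genes, with 50 members above 0 and 27 below. The largest member difference was 0.87, in Mrpl35, the counterpart of bacterial L35, which was at 0.06 in Th1reg, -1.11 in Th1+TGFb, -1.31 in rested, -0.90 in iTreg and -0.82 in Th1 cells. The Th1reg array thus stood above the other 4 for this gene. On the low side were Mrpl33 (-0.58), Mrpl52 (-0.39) and Mrpl4 (-0.26).

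Th1 cells that went into iTreg medium without a rest had slightly lower member signals than the profiled Th1 cells. Only 3 of 77 members were at least 2-fold lower in Th1+TGFb than in Th1 cells and 0 were at least 2-fold higher, where the shares over 13057 genes were 7.8% lower and 11.3% higher. The median member was -0.50 and the median gene -0.20, and 74 members were below 0. The 3 were Mrps28, the counterpart of bacterial S1, with -1.05, Mrps18b, 1 of 3 proteins related to bacterial S18, with -1.01, and Mrpl38, a protein of the central protuberance on top of the large subunit, with -1.00. A second probe of Mrps18b read -0.92, which is under 2-fold. None of the 77 was 2-fold lower with either scaling by detected probes or after quantile normalization, where Mrps28 was at -0.89 to -0.75.

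Mrps28 read 4.93 in Th1reg, 3.56 in Th1+TGFb, 2.95 in rested, 4.16 in iTreg and 4.61 in Th1 cells. Mrps18b read 5.94 in Th1reg, 4.75 in Th1+TGFb, 4.39 in rested, 4.97 in iTreg and 5.76 in Th1 cells. For both, the Th1+TGFb level was the second lowest, between the rested and iTreg levels. Mrpl38 was at 1.70 in Th1reg, 0.63 in Th1+TGFb, 0.80 in rested, 1.40 in iTreg and 1.63 in Th1 cells, lowest in Th1+TGFb cells. Against the list, Mrps6 was 0.42 higher in Th1+TGFb than in Th1 cells, Mrpl24 was at 0.04, and Mrpl44, an RNase III-like protein of the large subunit, was level (0.00). The Mrpl24 value was below 0 with spike-in scaling (-0.32) and normexp background correction (-0.04).

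In iTreg cells, set against Th1 cells of the same culture age, 9 of 77 members were at least 2-fold lower and 0 were at least 2-fold higher. The shares over 13155 genes were 17.8% lower and 10.8% higher, so 2-fold calls were not more frequent among members than among all genes. The median member was -0.63 and the median gene -0.24, and 75 members were below 0. Mrpl33, the counterpart of bacterial L33, had the largest difference. Its level was 7.71 in Th1reg, 7.74 in Th1+TGFb, 7.21 in rested, 6.37 in iTreg and 8.28 in Th1 cells, which made the iTreg signal 3.77-fold lower than the Th1 signal (-1.91). Mrps16, the counterpart of bacterial S16, was at 6.17 in Th1reg, 6.00 in Th1+TGFb, 5.58 in rested, 4.66 in iTreg and 6.17 in Th1 cells (-1.52). For these genes it was the iTreg array, not the rested array, that lay lowest.

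The other 7 were Mrpl52 (-1.42), Mrps10 (-1.22), Mrpl10 (-1.08), Mrpl17 (-1.06), Mrpl49 (-1.04), Mrpl44 (-1.02) and Mrps14 (-1.01). A second probe read -0.98 for Mrpl10, -0.17 for Mrpl49 and 0.24 for Mrps14, so 0 of these 3 were 2-fold lower by both probes. Of the 22 members with a second probe, 16 had the same direction by both probes in iTreg against Th1 cells. The 7 genes belong to different regions of the ribosome. Mrpl10 is the stalk base to which Mrpl12 binds, Mrps14 is the counterpart of bacterial S14 in the head of the small subunit, and Mrpl52 sits in the central protuberance. Mrpl44 was at 2.83 in Th1reg, 2.85 in Th1+TGFb, 2.23 in rested, 1.82 in iTreg and 2.84 in Th1 cells, nearly level in the 3 cultures other than rested and iTreg. Mrpl50 (0.11) and Mrps5 (0.03) were the only members above 0, where 15 were with the 75th percentile of probes detected on all arrays. Mrpl50 was at -0.27 by the mean of its probes and Mrps5 at -0.03 after normexp background correction and just under 0 in the authors' value table.

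The Th1reg culture can also be set against the 2 other cultures that ended in the same iTreg medium. Against Th1+TGFb cells, which skipped the rest, 14 of 77 members were at least 2-fold higher in Th1reg cells and 0 at least 2-fold lower, beside 12.3% higher and 15.1% lower over 13215 genes. The median member was 0.67 and the median gene 0.20. Mrps28 led with 1.37, a 2.58-fold difference, and was followed by Mrps10 (1.22), Mrps18b (1.19), Mrps2 (1.18), Mrpl35 (1.17) and Mrpl13 (1.09). Mrps2 and Mrpl13 are counterparts of bacterial S2 and L13. Just 4 members were below 0, of which Mrps6 (-0.22), Mrpl52 (-0.18) and Mrpl33 (-0.04) were the furthest. With spike-in scaling these 3 were at 0.46, 0.49 and 0.64, and Mrpl33 was also above 0 after quantile normalization and normexp background correction and in the authors' value table.

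Against iTreg cells, all 77 members were higher in Th1reg cells by their brightest probe. Of these, 14 were at least 2-fold higher, beside 15.8% of 13187 genes at least 2-fold higher and 12.1% at least 2-fold lower. The median member was 0.79, and the median gene 0.28, and the smallest member difference was 0.09, in Mrpl45, whose human counterpart anchors the ribosome to the inner membrane. The largest were Mrps10 (1.52), Mrps16 (1.51), Mrpl33 (1.34), Mrpl42 (1.22), Mrpl40 (1.20) and Mrpl17 (1.18). Of 22 members with a second probe, 20 had the same direction by both probes. The second probes of Mrps25 (-0.81) and Mrpl41 (-0.46) went the other way. Of 4 such members 2-fold higher by the brightest probe, 1 was 2-fold higher by the other. Under other processing some members lay below 0 in this comparison, 7 with the 75th percentile of probes detected on all arrays, 10 with quantile normalization, and 1 each with the median of detected probes and with the mean of all probes of a gene. Mrpl45 was then at -0.27, -0.32 and -0.04 in the first 3 of these.

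Members differed in how much they moved, with ranges of 0.29 to 2.43 log2 units over the 5 arrays. All genes well above background on all arrays had ranges of 0.08 to 11.24. In no comparison did 17 of the 77 reach 2-fold by their brightest probe. The matching share over all genes was not counted, so this number cannot be called few or many. Mrps23 had the smallest range, 0.29, with levels of 5.41 in Th1reg, 5.25 in Th1+TGFb, 5.37 in rested, 5.19 in iTreg and 5.48 in Th1 cells. Its second probe, however, was over 2-fold apart in iTreg against Th1 cells (-1.42) and in Th1reg against iTreg cells (1.17). That probe read -0.96 for rested against Th1 cells, where the first read -0.11. The first probe was above 0 in that comparison with the 75th percentile of detected probes (0.42), their median (0.15) and quantile normalization (0.64). Mrpl58, which rescues stalled ribosomes by releasing the unfinished chain, ranged over 0.40, with levels of 6.03 in Th1reg, 5.72 in Th1+TGFb, 5.88 in rested, 5.64 in iTreg and 6.04 in Th1 cells. Mrps34, needed in mice for stability of the small subunit, ranged over 0.50. The widest ranges were those of Mrps22 (2.43), Mrps6 (2.39) and Mrpl17 (2.35).

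Split by place in the ribosome, the members gave similar medians. In rested against Th1 cells, 35 of 50 large-subunit members and 16 of 26 small-subunit members were at least 2-fold lower, beside 26.7% of all genes. The medians relative to all genes were -0.88 and -0.82. In Th1reg against rested cells, 2-fold higher signals were found for 33 of 50 large-subunit and 17 of 26 small-subunit members, beside 27.7% of all genes. Proteins with a bacterial counterpart and proteins classed as particular to mitochondrial ribosomes were also close. At least 2-fold lower in rested cells were 32 of 45 and 19 of 31, with relative medians of -0.84 and -0.87. The second class takes in Mrps18a and Mrps18b, although both are related to bacterial S18. Mrps36, which carries the name but is a component of the 2-oxoglutarate dehydrogenase complex in the citric acid cycle, was counted in neither split. It was at 4.96 in Th1reg, 4.29 in Th1+TGFb, 3.38 in rested, 3.80 in iTreg and 4.64 in Th1 cells, so it too was lowest in rested cells.

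Smaller groups of known position were chosen after values had been seen and are given as description. The 3 stalk proteins Mrpl10, Mrpl11 and Mrpl12 were each at least 2-fold lower in rested than in Th1 cells (-1.80 to -1.08). Of 6 proteins around the exit tunnel, 5 were at least 2-fold lower in rested cells, and the sixth, Mrpl24, was at 0.13. Of 7 proteins of the central protuberance, 5 were at least 2-fold lower, with a range of -1.52 to -0.62. Beside these counts, 67.5% of the 77 members and 26.7% of all genes measured were at least 2-fold lower in rested cells. The 3 relatives of bacterial S18, namely Mrps18a in the large subunit and Mrps18b and Mrps18c in the small subunit, lay close together at -1.45 to -1.36 and were 1.32 to 1.71 higher in Th1reg than in rested cells.

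Ribosome subunits that do not carry the Mrp name gave similar values, although they are only 5. Dap3, the GTP-binding protein of the small subunit, was at -0.98 in rested against Th1 cells, Ptcd3 at -0.96, Aurkaip1 at -0.69, Gadd45gip1 at -1.16 and Chchd1 at -1.76. All 5 were higher in Th1reg than in rested cells, with a median of 1.19.

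Other lists of mitochondrial and ribosomal genes were measured the same way. The nucleus-encoded subunits of the respiratory chain and ATP synthase, the complexes that mitochondrial ribosomes help to build, had a median of -1.21 in rested against Th1 cells, with 54 of 81 at least 2-fold lower. They had a median of 1.26 in Th1reg against rested cells, with 52 of 80 at least 2-fold higher. The proteins of the cytosolic ribosome had a median of -0.24 in rested against Th1 cells, with 2 of 82 at least 2-fold lower, and of -0.03 in Th1reg against rested cells. Over all genes measured in rested against Th1 cells, the median was -0.29 and 26.7% were at least 2-fold lower. In Th1reg against rested cells the median of all genes was 0.29, and 27.7% were at least 2-fold higher. In iTreg against Th1 cells the cytosolic proteins had a median of -0.54, closer to the members' -0.63, and in Th1reg against Th1 cells their median was -0.28, where the members' was 0.12. The cytosolic probes were bright at a median level of 9.38 to 9.96 on the 5 arrays, and the part of that brightness in their small differences was not tested.

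**Figure D3:**
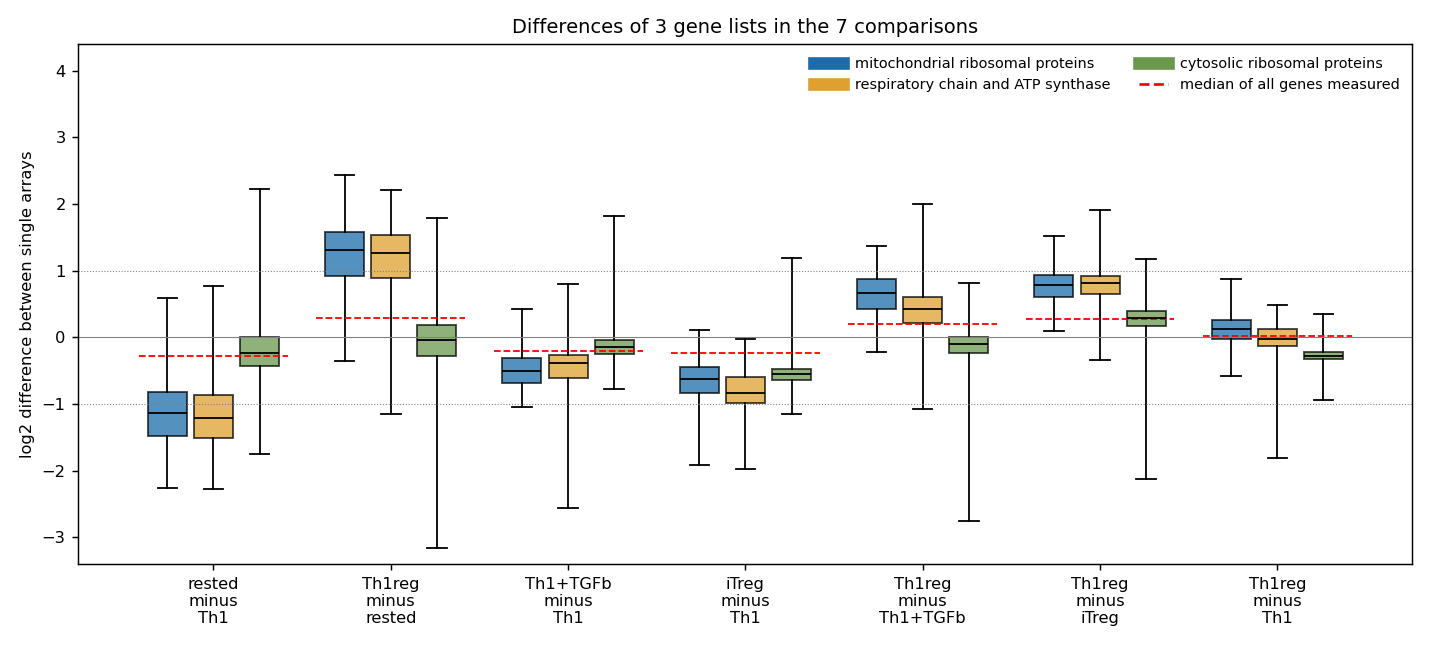
Log2 differences between single arrays in the 7 comparisons for the mitochondrial ribosomal proteins, the subunits of the respiratory chain and ATP synthase and the cytosolic ribosomal proteins; boxes span the quartiles with the median, whiskers reach the lowest and highest gene, and dashed lines are the median of all genes measured. The first 2 lists have medians near -1.1 to -1.2 in rested against Th1 cells and near 1.3 in Th1reg against rested cells, and the cytosolic list has medians of -0.24 and -0.03.

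In rested against Th1 cells, the lists of factors that work with the mitochondrial ribosome had medians nearer to that of all genes than the members had. Of 15 mitochondrial translation factors measured in rested against Th1 cells, 5 were at least 2-fold lower and 1 at least 2-fold higher, and the median was -0.88. The shares over all genes in that comparison were 26.7% lower and 17.5% higher, so the 2-fold count of this small list lay near that of all genes. Slirp, which with Lrpprc stabilises mitochondrial messenger RNAs, was at -1.81. The elongation factor Tsfm was at -1.60 and the release factor Mtrf1 at -1.43. Mtif2, the initiation factor that brings the first transfer RNA, went the other way. It was at 6.47 in Th1reg, 7.74 in Th1+TGFb, 8.29 in rested, 7.80 in iTreg and 6.80 in Th1 cells, so its rested level was 1.49 above Th1 and the highest of the 5.

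Mitochondrial aminoacyl-tRNA synthetases, the enzymes that load transfer RNAs, included 5 of 16 at least 2-fold lower in rested cells, again near the 26.7% of all genes, with a median of -0.81. Yars2 (-1.24) and Sars2 (-1.20) were among the 4 largest, and Wars2 was 1.98 higher in rested cells. Factors that assemble the mitochondrial ribosome had a median of -0.50, nearer to that of all genes, and 2 of 21 were at least 2-fold lower in rested cells, Malsu1 (-1.46) and Mtg1 (-1.10). Next came Eral1 and Noa1, both at -0.89. Proteins that transcribe, replicate and process mitochondrial DNA and RNA had 5 of 15 at least 2-fold lower, as near to that share, and a median of -0.57. They were led by the topoisomerase Top1mt (-1.50), the RNA helicase Supv3l1 (-1.37), the nuclease Pnpt1 (-1.36) and Hsd17b10 (-1.22), a subunit of mitochondrial RNase P.

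Among 9 measured regulators of nucleus-encoded mitochondrial genes, Myc, the growth factor-responsive activator of ribosome and mitochondrial genes, had the largest difference. Its level was 4.12 in Th1reg, 3.26 in Th1+TGFb, 1.77 in rested, 4.23 in iTreg and 4.29 in Th1 cells, a difference of -2.52 in rested against Th1 cells. Ppargc1a, a coactivator of mitochondrial biogenesis in muscle and brown fat, was dim. It was not well above background in Th1reg and Th1 cells and was at -2.13 in Th1+TGFb, -1.38 in rested and -2.77 in iTreg cells, at least 2.28 above Th1 in rested cells. The DNA-binding factors Nrf1 (-0.15), Gabpa (-0.76) and Yy1 (-0.27), whose binding motifs are common in promoters of mitochondrial genes, were less than 2-fold apart.

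Promoter windows were at hand in RefSeq (build GRCm38.p6) for 69 of the 78 members, in 75 windows of 250 bases before to 50 bases after a transcript start. They were searched on both strands for 4 motifs, that of NRF1 (given by its name alone, with its matches shown in the windows printed here), CCGGAAGT for ETS factors such as GABPA, CACGTG for the E-box that Myc and others bind, and AANATGGCG for YY1. Matches of different motifs overlapped in 0 member windows. The NRF1 motif was in 17.3% of member windows, the ETS motif in 16%, the E-box in 9.33% and the YY1 motif in 14.7%. In windows of all genes well above background on all arrays the shares were 10.2%, 8.43%, 10.2% and 5.27%, and in all 32851 windows of the table they were 4.6%, 3.89%, 7.15% and 2.38%. For the respiratory chain and ATP synthase list they were 24.7%, 6.85%, 9.59% and 13.7%. For the cytosolic ribosomal proteins they were 6.85%, 15.1%, 11% and 11%. These are shares of windows, not genes, and 3 of the 7 member windows with an E-box were of Mrpl2. No match was found in 38 member windows.

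In rested against Th1 cells the medians of members with and without a motif lay within 0.2 of each other. With the NRF1 motif the median was -1.11 over 13 members, and without it -1.25 over 55. With the ETS motif it was -1.29 over 12 members, and without it -1.13 over 56. With the E-box it was -1.16 over 5 members and without it -1.13 over 63, and with the YY1 motif it was -1.01 over 11 members and without it -1.18 over 57. In other comparisons the NRF1 gap was wider. The median with that motif was 0.99, and without it 1.39, in Th1reg against rested cells, and 0.25 with it and 0.67 without it in Th1reg against Th1+TGFb cells. A match is a description of the letters and not a site, and these medians carry no test.

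The windows of 6 members are shown because they span the range of differences, each 5′ to 3′ on the strand of the gene, in lower case with any motif match in capitals. Mrps22 (chr9:98601630-98601929, minus strand, ETS motif), Mrpl17 (chr7:105811038-105811337, minus strand, NRF1 motif), Mrps10 (chr17:47368947-47369246, plus strand, no match) and Mrpl12 (chr11:120484387-120484686, plus strand, NRF1 motif) are genes with large differences after rest. Mrpl9 (chr3:94443086-94443385, plus strand, NRF1 motif) and Mrps5 (chr2:127587176-127587475, plus strand, no match) are genes that were not lower in rested cells.
Mrps22: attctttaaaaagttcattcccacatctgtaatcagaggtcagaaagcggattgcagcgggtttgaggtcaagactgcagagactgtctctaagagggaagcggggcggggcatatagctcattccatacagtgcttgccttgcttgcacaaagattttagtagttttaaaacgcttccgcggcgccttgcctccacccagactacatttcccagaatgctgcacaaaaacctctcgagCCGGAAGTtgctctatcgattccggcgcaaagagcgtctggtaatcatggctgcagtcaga
Mrpl17: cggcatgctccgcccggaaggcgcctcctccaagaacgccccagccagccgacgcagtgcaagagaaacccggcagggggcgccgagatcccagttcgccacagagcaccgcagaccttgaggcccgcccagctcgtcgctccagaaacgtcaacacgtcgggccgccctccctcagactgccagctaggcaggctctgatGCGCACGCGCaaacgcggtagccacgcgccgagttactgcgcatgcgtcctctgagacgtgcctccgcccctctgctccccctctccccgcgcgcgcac
Mrps10: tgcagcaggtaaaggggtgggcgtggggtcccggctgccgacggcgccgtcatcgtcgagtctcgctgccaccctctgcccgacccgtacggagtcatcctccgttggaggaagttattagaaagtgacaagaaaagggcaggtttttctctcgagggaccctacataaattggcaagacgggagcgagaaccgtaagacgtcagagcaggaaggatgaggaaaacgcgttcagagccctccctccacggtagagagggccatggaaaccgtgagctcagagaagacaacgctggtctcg
Mrpl12: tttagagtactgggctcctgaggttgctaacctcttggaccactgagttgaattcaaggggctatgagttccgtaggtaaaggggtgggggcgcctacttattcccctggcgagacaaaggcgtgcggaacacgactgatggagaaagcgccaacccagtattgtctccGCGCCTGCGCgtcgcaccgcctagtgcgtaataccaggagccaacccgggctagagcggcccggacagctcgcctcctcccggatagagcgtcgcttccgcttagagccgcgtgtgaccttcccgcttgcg
Mrpl9: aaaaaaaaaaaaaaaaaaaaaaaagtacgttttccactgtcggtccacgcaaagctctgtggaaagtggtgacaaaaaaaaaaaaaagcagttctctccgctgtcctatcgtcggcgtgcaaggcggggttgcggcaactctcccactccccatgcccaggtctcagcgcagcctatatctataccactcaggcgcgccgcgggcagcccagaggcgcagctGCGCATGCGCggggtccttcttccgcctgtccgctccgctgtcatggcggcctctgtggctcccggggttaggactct
Mrps5: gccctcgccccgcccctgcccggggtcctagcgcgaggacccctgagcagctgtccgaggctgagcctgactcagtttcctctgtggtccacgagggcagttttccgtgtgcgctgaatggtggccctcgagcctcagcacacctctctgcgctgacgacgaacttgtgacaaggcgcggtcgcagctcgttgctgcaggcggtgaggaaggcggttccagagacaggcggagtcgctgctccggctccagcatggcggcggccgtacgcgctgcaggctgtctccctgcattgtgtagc
Both sets hold a window with the NRF1 motif and a window with none of the 4.

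The windows of 24 members, 34.8% of those with one, overlapped the window of a gene on the opposite strand. The share was 19.2% of genes well above background on all arrays and 11.9% of all genes in the table. It was 30.9% for the respiratory chain and ATP synthase list, close to the members, and 21.3% for the cytosolic ribosomal proteins. Mrps11 and Mrpl46 overlap each other by 141 bases, which puts a small-subunit and a large-subunit gene back to back. They are shown because both members of the pair belong to the mitochondrial ribosome (chr7:78782881-78783180, plus strand, for Mrps11, with a YY1 motif on its opposite strand in capitals, and chr7:78783040-78783339, minus strand, for Mrpl46, with no match).
Mrps11: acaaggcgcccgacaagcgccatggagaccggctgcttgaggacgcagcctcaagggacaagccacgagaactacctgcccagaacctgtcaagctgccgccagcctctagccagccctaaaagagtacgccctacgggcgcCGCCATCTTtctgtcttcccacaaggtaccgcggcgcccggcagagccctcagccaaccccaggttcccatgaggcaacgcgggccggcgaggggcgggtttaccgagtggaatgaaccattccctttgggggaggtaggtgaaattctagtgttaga
Mrpl46: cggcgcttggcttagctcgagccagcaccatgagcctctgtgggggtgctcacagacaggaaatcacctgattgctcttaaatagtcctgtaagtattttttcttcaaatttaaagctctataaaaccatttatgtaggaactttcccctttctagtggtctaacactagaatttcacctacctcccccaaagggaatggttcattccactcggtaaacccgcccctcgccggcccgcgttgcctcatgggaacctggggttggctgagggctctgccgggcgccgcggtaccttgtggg
Mrps11 read 2.42 in Th1reg, 1.76 in Th1+TGFb, 1.21 in rested, 1.57 in iTreg and 2.22 in Th1 cells. Mrpl46 read 3.28 in Th1reg, 2.61 in Th1+TGFb, 1.88 in rested, 2.56 in iTreg and 3.29 in Th1 cells. In rested against Th1 cells the pair differed by -1.01 and -1.41, and in Th1reg against rested cells by 1.21 and 1.39.

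Other opposite-strand neighbours ranged from -3.84 to 1.01 in rested against Th1 cells. Over 20 pairs in which the neighbour was no member and both were measured, the median member was -1.18 and the median neighbour -0.62. At least 2-fold lower were 14 members and 7 neighbours, beside 26.7% of all genes in that comparison, and the neighbour count lay near that share. Mrpl49 at -2.00 lies opposite Fau, which encodes a cytosolic ribosomal protein and was at 0.35. Mrpl57 at -1.12 lies opposite Ska3, a kinetochore gene of dividing cells, at -3.84. Mrps12 and Sars2, the mitochondrial seryl-tRNA synthetase, were at -1.11 and -1.20, and Mrpl43 and Twnk, the helicase of mitochondrial DNA, were at -0.67 and -0.76.

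A second probe was present for 22 members and measured in rested against Th1 cells for 21. For 19 of the 21 it had the same direction as the brightest probe, with a median of -1.02 where the brightest probes of the same genes had -1.13. The median gap between the probes of a gene was 0.27. At least 2-fold lower were 16 of the genes by the brightest probe, and 10 of those 16 by the other. Mrps25 and Mrpl41 had opposite directions by their dimmer probes. The second Mrpl41 probe was at -1.60 in Th1reg, -1.50 in Th1+TGFb, -0.60 in rested, -1.15 in iTreg and -2.32 in Th1 cells, highest in rested cells. The first was at 5.49 in Th1reg, 4.71 in Th1+TGFb, 4.20 in rested, 5.03 in iTreg and 5.30 in Th1 cells, lowest in rested cells. Mrpl50 was at -0.56 in rested against Th1 cells by its brightest probe and at -1.53 by its other probe. Where probes of a gene disagree the value given for that gene is uncertain, and the transcript each probe reads was not tested.

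**Figure D4:**
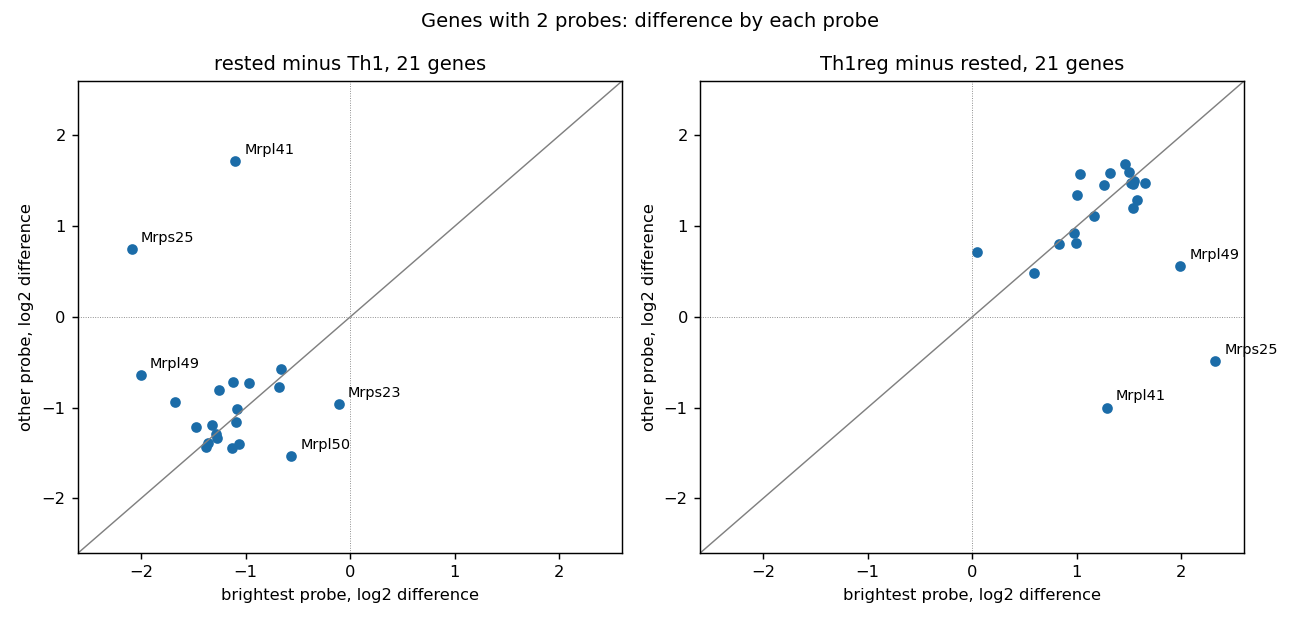
Log2 difference between single arrays by the brightest probe (horizontal axis) and by the other probe (vertical axis) of each gene with 2 probes, for rested minus Th1 and Th1reg minus rested cells; the line marks equality. Most of the 21 genes lie near the line, and Mrps25 and Mrpl41 lie on opposite sides of 0 by their 2 probes.

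The place of the rested array at the bottom held under every scaling tried, in differing numbers. It was lowest for 64 members as reported, for 50 after quantile normalization, for 52 with the 75th percentile of probes detected on all arrays, for 54 with the median of those probes, for 66 after normexp background correction and for 76 with spike-in scaling. Scaling by a constant moves the differences of genes well above background on both arrays by a common amount. With spike-in scaling the median of all genes in rested against Th1 cells moved by -1.16. With the 75th percentile of detected probes that median moved by 0.46. The median of all genes takes in genes dim on an array, so its move need not equal the common amount. The number of members at least 2-fold lower in rested cells was 75 and 14 under these 2 settings, against 52 as reported. Relative to the median of all genes, the median member was lower in rested than in Th1 cells under each of them. For genes well above background on both arrays, spike-in scaling and the 2 scalings by detected probes move the other lists as much as the members.

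**Figure D5:**
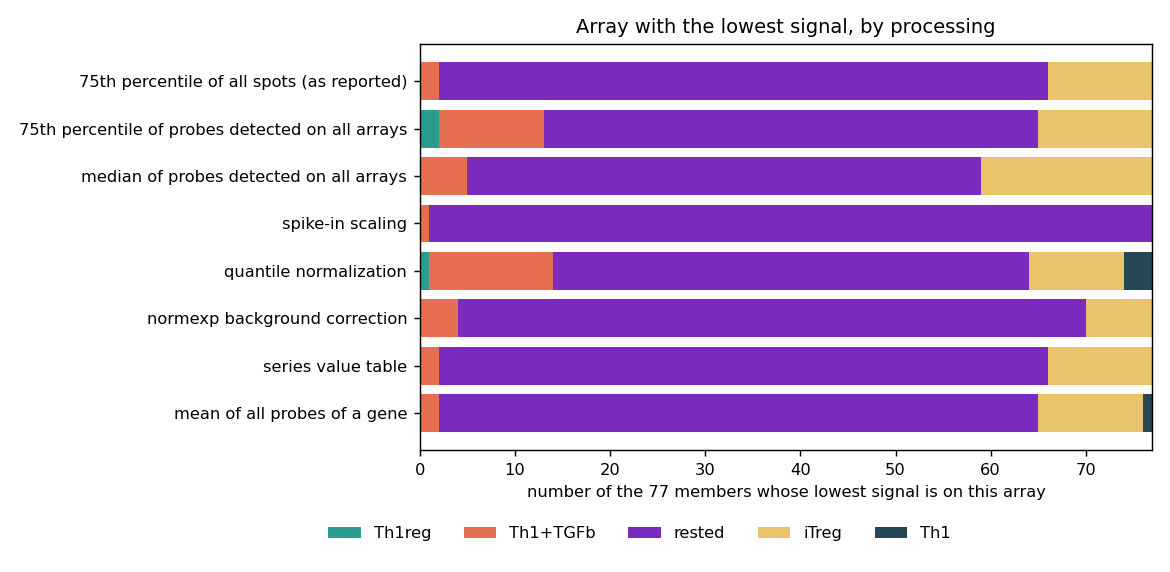
Number of the 77 members whose lowest signal is on each array, under the scaling as reported and 7 other ways to process the signals; bars add to 77. The rested array is lowest for 50 to 76 members in every bar.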

How the data were processed

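Values were the spot intensities that the deposited scanner files hold, 1 file for each array, made with Agilent Feature Extraction 10.7.1.1 per the submitters' processing notes. The processed intensity is background-subtracted by that software, per the file headers. The authors' series value table of log2 values was found to be the same intensity over 1 constant for each array, within 0.01 log2 for at least 99.7% of probes (column medians 0.0693 for Th1reg, 0.103 for Th1+TGFb, 0.123 for rested, 0.0925 for iTreg and 0.0762 for Th1). It was used as an alternative, and the origin of its constant stays unknown.

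Control spots and outlier spots were left out (109 to 142 outliers an array), spots of a probe were averaged, and log2 intensity was scaled by the 75th percentile of each array. Probe accessions were matched to genes of the RefSeq table, which named 28331 of 55681 probes and 21368 genes. A gene entered a comparison when well above background on at least 1 of its 2 arrays; the lower side was then set to the array's floor where it was below it. A call is a difference of at least 2-fold (log2 1). With 1 array a group no test, p-value or interval was made. All 5 arrays were on 1 slide. The calculation was checked on simulated data. The members, gene lists and motifs were chosen with earlier results of these data known, and the small position groups after the values of this report had been seen. Named are all members 2-fold apart where 12 or fewer are, otherwise the 6 largest each way, the 3 smallest and largest ranges, up to 3 members opposite to the median, and the 4 largest of other lists; some genes of the lists are not reported here.

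Alternatives were other scalings, quantile normalization (limma 3.58.1 in R 4.3.3), normexp background correction with an offset of 50 on the median signal (the mean signal was not used here), other filters, the mean of all probes and a 1.5-fold threshold. Tables were made with Python 3.11.15, pandas 2.3.3 and numpy 2.4.6, and figures with matplotlib 3.10.9.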

Additional observations from a re-analysis of the deposited data

Results flagged for a closer look

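The 2 comparisons of a culture put into iTreg medium with cells of the kind put into it differed in direction. The median member was 1.32 higher in Th1reg than in rested cells, and at -0.50 in Th1+TGFb against Th1 cells. The medians of all genes also had opposite signs, at 0.29 in Th1reg against rested cells and -0.20 in Th1+TGFb against Th1 cells. Mrps28, the counterpart of bacterial S1, was at 1.97 for Th1reg against rested cells and -1.05 for Th1+TGFb against Th1 cells. Mrps18b, a relative of bacterial S18, was at 1.54 for Th1reg against rested cells and -1.01 for Th1+TGFb against Th1 cells. The Th1+TGFb values of both were under 2-fold with the 75th percentile of detected probes (-0.81 and -0.76), with their median (-0.89 and -0.84) and after quantile normalization (-0.75 and -0.64). They were picked out because the single arrays of the pairs lay on opposite sides of 0. With 1 array a culture this difference was not tested.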

How the results depend on the processing

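No paired analysis was possible because each culture had 1 array, and no replicate could be left out. Directions of the 7 medians held in all alternatives, and no named member 2-fold apart changed sign. By their brightest probe, the named members near 0 or opposite to the median that did are named in the results with the setting, apart from Mrpl4 in Th1reg against Th1, at 0.05 with spike-in scaling, and Mrpl44 in Th1+TGFb against Th1, at -0.36 with spike-in scaling, -0.07 with normexp and -0.02 in the authors' value table. Comparisons below run in the order rested against Th1, Th1reg against rested, Th1+TGFb against Th1, iTreg against Th1, Th1reg against Th1+TGFb, Th1reg against iTreg and Th1reg against Th1; only values that moved by over the repeat-spot spread (counts, over 1.5 times) are given, and beyond the effect of a setting's construction the cause was not tested. With the 75th percentile of probes detected on all arrays, the first 6 medians were -0.60, 0.80, -0.26, -0.25, 0.44 and 0.42, with 14 lower and 1 higher (Mrps5), 26 higher, 0 lower, 3 lower, 1 higher and 2 higher at 2-fold. With the median of those probes the first 6 medians were -0.87, 1.05, -0.34, -0.50, 0.49 and 0.65, with 34 lower in rested against Th1, 0 lower in Th1+TGFb against Th1, 4 lower in iTreg against Th1, 4 higher in Th1reg against Th1+TGFb and 8 higher in Th1reg against iTreg. With spike-in scaling the medians were -2.29, 2.79, -0.87, -0.34, 1.34 and, in the last comparison, 0.43, with 77 higher in Th1reg against rested, 21 lower in Th1+TGFb against Th1, 3 lower in iTreg against Th1, 60 higher in Th1reg against Th1+TGFb and 1 higher in Th1reg against Th1. Quantile normalization gave medians of -0.55, 0.78, -0.25, -0.17, 0.45 and 0.39, relative medians of -0.45, 0.61, -0.15, -0.16, 0.28 and 0.28, and 15 lower, 27 higher, 0 lower, 1 lower, 2 higher and 3 higher. Normexp gave medians of -1.25 and 1.42 in the first pair, relative medians of -1.05, 1.19 and, in Th1reg against Th1+TGFb, 0.57, and 5 lower in iTreg against Th1. Without a filter on dim genes, which brings many dim genes into the median of all genes, relative medians were -1.49, 1.75, -0.68, -0.60, 0.96, 0.90 and 0.29. With genes well above background on all arrays they were -0.73 and 0.90 in the first pair. At 1.5-fold, 1 was higher in rested against Th1, 30 were lower in Th1+TGFb against Th1, 46 were lower in iTreg against Th1, and 44, 59 and 1 were higher in the last 3. Signal over background limits little here, with 77 of 78 members well above background throughout, and the spread between cultures was not measured.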
